A study of Homo sapiens with 6 samples.

Results

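Claudins and the proteins assembled with them seal the space between neighbouring epithelial cells at the tight junction. The claudins CLDN1, CLDN3, CLDN4, CLDN7, CLDN12 and CLDN18, the membrane protein occludin (OCLN) and the scaffold proteins TJP1 and TJP3 were taken by gene name from the deposited table, 9 genes of 60504. Each name matched 1 protein-coding row. Of the 9 genes, 8 averaged 1 TPM (a length-scaled share of transcripts) or more across the libraries and were tested among 15042 genes, and CLDN18 was below that level.

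The libraries came from HCC827, an established line of human lung adenocarcinoma cells that carries mutant EGFR. All cells received RPMI medium with fetal bovine serum and antibiotics. In the 2D group (3 libraries) 1000000 cells were seeded in an uncoated flask and passaged after 4 to 6 days. In the 3D group (3 libraries) 50000 cells were embedded in 100 µL of growth factor reduced Matrigel, a mouse basement membrane gel, and kept for 12 to 16 days or to near confluence. Tumoroids were passaged with Dispase and a ROCK inhibitor, an agent that acts on actomyosin tension at junctions, and then with TrypLE, the enzyme also used on the 2D cells. Geometry, culture time, seeding number, gel contact and passaging differed together between the groups, so their effects cannot be told apart. Whether a group's libraries were grown as separate cultures is not stated in the labels, so p-values reflect the spread among these libraries alone, and that spread may be technical. In bulk RNA, fewer cells expressing a gene and less RNA per cell cannot be told apart.

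A tight junction strand is built from claudins, small proteins with 4 membrane-spanning segments. Sealing claudins such as CLDN1, CLDN3 and CLDN4 tighten the paracellular path, whereas pore-forming claudins such as CLDN2 let ions through. OCLN belongs to another family of membrane proteins at the same site. TJP1 (ZO-1) and TJP3 (ZO-3) are scaffolds that carry PDZ domains and link the membrane proteins to actin. In the lung, CLDN18 is the claudin of alveolar epithelium, and its lung form is under the control of NKX2-1.

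Promoter sequence is shown for CLDN1, which was called higher in 3D, and for CLDN3 and CLDN7, which were not called. Each line holds the 250 bases before the RefSeq start (GRCh38.p14), 5′ to 3′ on the gene's own strand. The windows are chr3:190322447-190322696 on the minus strand for CLDN1, chr7:73770271-73770520 on the minus strand for CLDN3, and chr17:7263214-7263463 on the minus strand for CLDN7. Capitals mark matches on either strand to the GC box GGGCGG, to CACCC, the core bound by KLF factors, and to AACCGG, the core of grainyhead-like sites.

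CLDN1: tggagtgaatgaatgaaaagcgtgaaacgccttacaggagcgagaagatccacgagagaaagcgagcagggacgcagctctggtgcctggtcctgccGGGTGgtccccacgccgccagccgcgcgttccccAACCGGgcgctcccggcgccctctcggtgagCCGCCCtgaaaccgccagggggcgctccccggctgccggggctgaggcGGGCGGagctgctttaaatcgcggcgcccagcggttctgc
CLDN3: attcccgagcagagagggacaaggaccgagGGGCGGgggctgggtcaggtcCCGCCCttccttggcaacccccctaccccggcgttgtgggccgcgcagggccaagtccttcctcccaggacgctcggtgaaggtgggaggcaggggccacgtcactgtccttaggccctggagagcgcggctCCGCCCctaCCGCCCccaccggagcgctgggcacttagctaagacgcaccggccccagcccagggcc
CLDN7: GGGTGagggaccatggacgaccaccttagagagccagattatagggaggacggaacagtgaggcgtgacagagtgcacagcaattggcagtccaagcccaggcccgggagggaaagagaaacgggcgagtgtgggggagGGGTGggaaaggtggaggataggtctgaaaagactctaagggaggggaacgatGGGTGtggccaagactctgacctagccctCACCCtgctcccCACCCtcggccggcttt

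The GC box occurred 2 times before CLDN1, 4 times before CLDN3 and 0 times before CLDN7, and 42.6% of 35116 RefSeq promoter windows of this length held at least 1. CACCC occurred 1 time before CLDN1, 0 times before CLDN3 and 5 times before CLDN7, against 54.7% of all windows with at least 1. AACCGG, held by 5.99% of all windows, occurred 1 time before CLDN1. The E-box CACCTG, the motif bound by the repressors SNAI1 and ZEB1, was in none of these 3 windows, and of the 9 members CLDN18, OCLN and TJP1 held 1 each (17.5% of all windows). The AP-1 motif TGANTCA was found 2 times before CLDN4 and in no other member (6.57% of all windows). GC content of the printed windows was 68.8%, 71.6% and 60.4%, against a median of 58.0% for all windows. The windows of CLDN4, OCLN and TJP3 lie wholly within GENCODE 29 exons (250 bases), and those of CLDN12 and CLDN18 hold 108 and 81 exonic bases, so their matches can be in transcribed sequence and they are not printed. The CLDN1 window holds 29 exonic bases and those of CLDN3, CLDN7 and TJP1 hold 0. The CLDN7 window nevertheless lies within the annotated CLDN7 span (chr17:7259903-7263983, GENCODE 29), so its matches too can be in transcribed sequence. A match is a string of letters, not a measured binding site.

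The cells carried the markers of lung epithelium. EPCAM, an epithelial adhesion protein, lay between 567 and 631 TPM in all 6 libraries, and NKX2-1 between 58.9 and 79.9 TPM. The summed level of 7 lung epithelial markers was 4525 to 8343 TPM in 3D and 7285 to 9683 TPM in 2D. Of these 7, only KRT7 passed the test, with 698 ± 172 TPM in 3D and 1201 ± 31.4 TPM in 2D (limma, adjusted p = 0.0356; means ± SD of 3 libraries). Of 7 fibroblast markers, 6 stayed below the test filter, COL3A1 was listed at 0 in every library and COL1A2 at 0 to 0.01 TPM, while COL1A1, which was called higher in 3D (limma, adjusted p = 0.0170), stood at 5.26 to 10.7 TPM in 3D and 2.02 to 2.50 TPM in 2D. The 7 summed to 6.99 to 12.2 TPM in 3D and 2.10 to 2.96 TPM in 2D. LUM, untested, stood at 0.8 to 1.49 TPM in 3D and 0.08 to 0.36 TPM in 2D. The other untested fibroblast markers were not apart between the groups. The 6 endothelial markers, all untested, summed to 1.55 to 4.10 TPM in 3D and 0.68 to 1.48 TPM in 2D. KDR (0.64 to 2.5 TPM in 3D, 0.01 to 0.08 in 2D), CDH5 (0.42 to 1.02 and 0.06 to 0.21) and VWF (0.15 to 0.36 and 0.02 to 0.11) were higher in every 3D library. PECAM1, TEK and CLDN5, the endothelial claudin (0 to 0.09 TPM), overlapped between the groups. The 6 leukocyte markers summed to 45.9 to 87.4 TPM in 3D and 68.8 to 96.4 TPM in 2D, nearly all of it CD68. PTPRC (0.03 to 0.25 TPM in 3D, 0 in 2D) and LYZ (0.23 to 0.3 and 0 to 0.13) were higher in every 3D library, and the others overlapped. The part of these markers in the results below was not tested. On the first principal component, with 52.7% of the variance, the 2D libraries scored 34.18 to 40.8. There 3D replicate 3 scored -22.65, nearer to 2D than 3D replicates 1 and 2 (-42.88 and -48.63). The libraries numbered 3 also stood apart from the others of their group on the second component, which held 19.5% of the variance. Scores there were -18.6 for 3D replicate 3 and -42.05 for 2D replicate 3 against 3.99 to 25.6 for the rest.

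TPM is scaled for transcript length, so levels can be set roughly side by side between genes. For CLDN12, OCLN and TJP1 the assignment of reads shared with other genes or pseudogenes is uncertain. CLDN4 was the most abundant claudin in every library, followed by CLDN7. In 3D the order of mean levels was CLDN4 (570.4 TPM), CLDN7 (384), CLDN12 (132), CLDN3 (83.9), OCLN (82.3), TJP1 (33.2), TJP3 (18.98), CLDN1 (13.9) and CLDN18 (0). CLDN3 and OCLN overlapped across the 3D libraries, as did TJP3 and CLDN1, and all other neighbours in this order were apart. In 2D the order was CLDN4 (496), CLDN7 (359), CLDN3 (96.1), CLDN12 (74.3), OCLN (56.9), TJP3 (27.3), TJP1 (27.0), CLDN1 (4.52) and CLDN18 (0.02). There the pairs CLDN4 and CLDN7, CLDN3 and CLDN12, and TJP3 and TJP1 overlapped. The plot of all 9 genes by library shows both orders.

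**Figure D1:**
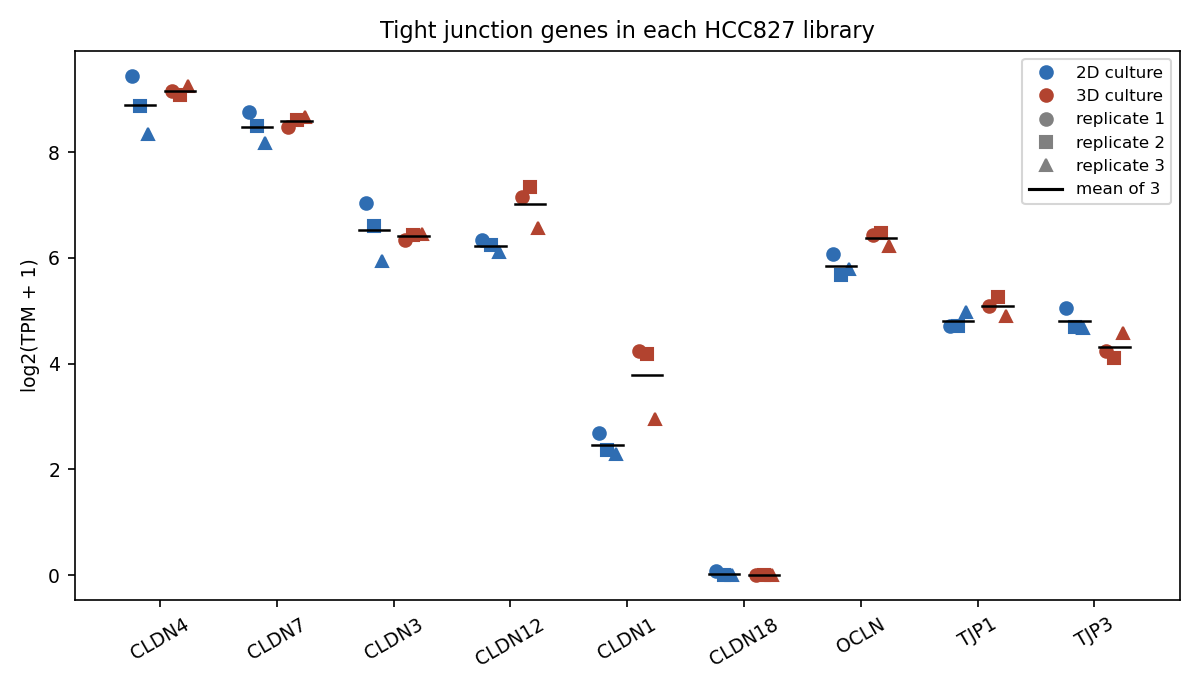
Level of each gene in each library as log2(TPM + 1), blue for 2D and red for 3D culture, with the replicate given by the symbol and the mean of 3 libraries as a bar. CLDN1, CLDN12 and OCLN lie higher in all 3D libraries than in any 2D library, TJP3 lies lower, and CLDN3, CLDN4 and CLDN7 spread more widely in 2D than in 3D.

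Of the 8 tested genes, CLDN1 and CLDN12 rose in 3D, 0 fell and the other 6 were not called. The test was limma on log2(TPM + 1), with a Benjamini-Hochberg adjusted p under 0.05 over all tested genes as the threshold. Among all tested genes 10.2% were called higher and 2.12% lower, which is 1536 and 319 genes. Median-ratio scaling gave 943 and 669, and quantile normalization gave 869 and 576. The groups did not overlap in 4 of the 8 genes (CLDN1, CLDN12, OCLN and TJP3), against 36.7% of all tested genes. The 8 genes had a median log2 fold change of 0.28, beside 0.12 for all 15042. That centre depends on the scaling of the libraries: it was -0.03 under median-ratio scaling and -0.04 under quantile normalization, and each log2 fold change below is to be read against 0.12.

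CLDN1, a sealing claudin needed for the skin barrier, had the largest difference. It stood at 17.9, 17.1 and 6.77 TPM in 3D replicates 1 to 3 and at 5.49, 4.19 and 3.89 TPM in 2D replicates 1 to 3. Every 3D library was above every 2D library, but 3D replicate 3 was at 38.7% of the mean of the other 3D libraries and close to the 2D range. The means were 13.9 ± 6.19 and 4.52 ± 0.85 TPM (SD, n = 3 each), a ratio of 3.08, with a limma log2 fold change of 1.34 (SE 0.34, 95% interval 0.54 to 2.13, adjusted p = 0.0437).

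CLDN12, a claudin that lacks the C-terminal PDZ-binding motif of most others, stood at 142, 161 and 93.1 TPM in 3D and at 80.0, 74.8 and 68.2 TPM in 2D. The groups were apart, and 3D replicate 3 was again the lowest 3D library, at 61.5% of the mean of the other 3D libraries. The means were 132 ± 35.1 and 74.3 ± 5.93 TPM (log2 fold change 0.79, SE 0.21, 95% interval 0.30 to 1.27, adjusted p = 0.0490). CLDN12 lies at chr7:90383721-90513402 (GRCh38, GENCODE 29), and its annotated span overlaps GTPBP10 (42.9 TPM in 3D, 38.3 in 2D) and CDK14 (2.87 and 4.33 TPM) on the same strand. How reads in the shared stretches were assigned is not given in the sources used here.

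Both calls were close to the threshold. Each was lost with a pseudocount of 5, without the filter on low TPM, under median-ratio scaling or quantile normalization, and with no trend in the model. Leaving out 3D replicate 1, 3D replicate 2 or any 2D library also ended both calls, with limma adjusted p reaching 0.154 for CLDN1 and 0.162 for CLDN12. Without 3D replicate 3 the log2 fold changes were larger, 1.75 for CLDN1 (adjusted p = 0.00537) and 1.02 for CLDN12 (adjusted p = 0.0118). The log2 fold change stayed positive in all 15 alternatives, between 0.93 and 1.75 for CLDN1 and between 0.61 and 1.02 for CLDN12.

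OCLN, the first membrane protein found at tight junctions, stood at 85.4, 87.4 and 74.1 TPM in 3D and at 66.1, 50.0 and 54.4 TPM in 2D. The groups were apart, with means of 82.3 ± 7.18 and 56.9 ± 8.31 TPM. The log2 fold change of 0.53 (SE 0.15, 95% interval 0.19 to 0.87) missed the threshold (limma, adjusted p = 0.0554) and passed it only without both libraries numbered 3 (0.58, adjusted p = 0.0427). RefSeq lists a transcribed pseudogene of OCLN, OCLNP1, on the same chromosome. How reads common to both were divided is uncertain.

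CLDN4 and CLDN7 did not pass the test, and neither did CLDN3. CLDN4, a barrier claudin and a receptor for a bacterial enterotoxin, stood at 569.8, 537 and 604 TPM in 3D and at 695, 469.7 and 322 TPM in 2D. The 3D libraries lay inside the 2D range, and the log2 fold change was 0.27 (95% interval -0.33 to 0.88, limma, adjusted p = 0.507). CLDN3, its close relative and a receptor for the same toxin, stood at 79.7, 85.2 and 86.8 TPM in 3D and at 131, 96.5 and 60.8 TPM in 2D. Its 3D values too lay inside the 2D range (log2 fold change -0.13, 95% interval -0.72 to 0.47, adjusted p = 0.766). CLDN7, a claudin that binds EPCAM, stood at 355, 390.2 and 406 TPM in 3D and at 431, 358 and 287 TPM in 2D (0.12, 95% interval -0.28 to 0.51, adjusted p = 0.67). The intervals leave room for changes in either direction. The sign turned to negative under median-ratio scaling for CLDN7 (-0.063), without 2D replicate 3 for CLDN4 (-0.0047) and CLDN7 (-0.035), and without both libraries numbered 3 (-0.047 and -0.077), and to positive without 2D replicate 1 for CLDN3 (0.13).

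For these 3 abundant claudins the spread lay mainly in 2D. On the log2(TPM + 1) scale the SD of CLDN3 was 0.06 in 3D and 0.55 in 2D, that of CLDN4 0.09 and 0.55, and that of CLDN7 0.10 and 0.29. The ratio of the 2D to the 3D SD was 8.69, 6.52 and 2.98, where the median of all tested genes was 1.07. A ratio at least as large was found in 1.85%, 3.06% and 12.6% of tested genes. For CLDN1 and CLDN12 the spread lay in 3D instead, with ratios of 0.30 and 0.28, and OCLN (1.59), TJP1 (0.84) and TJP3 (0.88) lay between. An SD of 3 libraries is imprecise, and no test was made of these ratios. In 2D, replicate 1 was the highest and replicate 3 the lowest library for 6 of the 8 tested members (all but OCLN and TJP1), as it was for 26.2% of all tested genes. CLDN3 and CLDN4 are neighbours on chromosome 7, at chr7:73768997-73770270 and chr7:73799542-73832693 (GRCh38, GENCODE 29). The last coordinate of the CLDN3 span and the first of the CLDN4 span differ by 29272.

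The claudin genes together made up 1179 to 1214 TPM in the 3D libraries and 1355, 1014 and 755 TPM in 2D replicates 1 to 3, summed over 24 claudins in the table. CLDN4 and CLDN7 held 76.6% to 83.3% of that sum in 3D and 80.6% to 83.1% in 2D. CLDN3 held 6.77% to 7.15% in 3D and 8.04% to 9.66% in 2D, apart in all libraries. CLDN1 held 0.558% to 1.52% in 3D and 0.405% to 0.515% in 2D, also apart. The share of CLDN12 was 12.0%, 13.3% and 7.67% in 3D and 5.90%, 7.37% and 9.02% in 2D, which overlap.

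**Figure D2:**
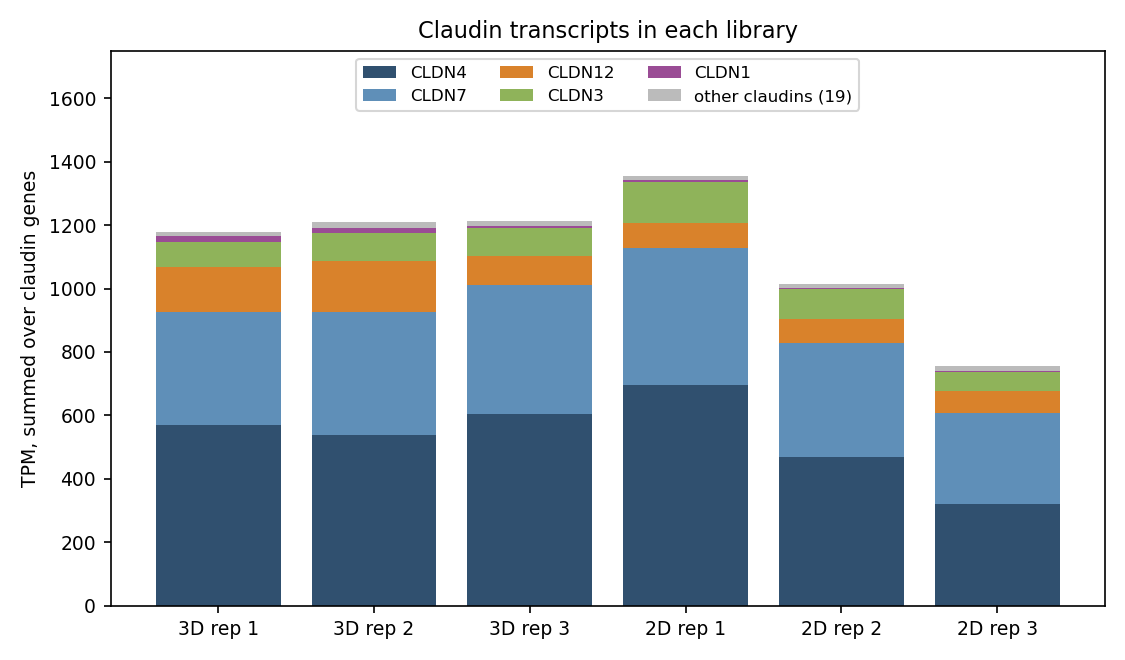
Stacked TPM of the claudin genes in each library, with CLDN4 at the base and 19 low claudins pooled in grey. The 3D bars are of nearly equal height (1179 to 1214 TPM), whereas the 2D bars run from 755 to 1355 TPM with CLDN4 and CLDN7 as the main part of each.

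A ratio of genes within a library is unchanged when the library is multiplied by a factor, though not under quantile normalization, and 6 were computed, for pairs chosen with the values known. CLDN4 over CLDN3 was 7.15, 6.30 and 6.97 in 3D and 5.31, 4.87 and 5.30 in 2D, with no overlap. CLDN1 over CLDN7 was 0.0503, 0.0438 and 0.0167 in 3D and 0.0127, 0.0117 and 0.0136 in 2D, apart by a small margin at replicate 3. CLDN12 over CLDN3 was 1.77, 1.89 and 1.07 in 3D and 0.611, 0.775 and 1.12 in 2D, so that 3D replicate 3 fell within the 2D range. OCLN over CLDN3 and CLDN4 over CLDN7 also overlapped between the groups.

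The scaffold genes TJP1 and TJP3 did not pass the test, with estimates of opposite sign. TJP1 stood at 33.2, 37.5 and 28.9 TPM in 3D and at 25.2, 25.2 and 30.5 TPM in 2D, and the groups overlapped (log2 fold change 0.29, 95% interval -0.06 to 0.64, limma, adjusted p = 0.23). A pseudogene on the opposite strand, HMGN2P5, lies within TJP1 (62.4 TPM in 3D, 93.8 in 2D), and whether counting used strand is not given in the sources used here. TJP3 stood at 17.9, 16.2 and 22.9 TPM in 3D and at 32.4, 25.0 and 24.5 TPM in 2D, with every 3D library below every 2D library (-0.50, SE 0.18, 95% interval -0.92 to -0.09, adjusted p = 0.102). It was called lower only under median-ratio scaling (-0.68, adjusted p = 0.0489) and without both libraries numbered 3 (-0.71, adjusted p = 0.0287). The ratio of TJP1 to TJP3 was 1.86, 2.32 and 1.26 in 3D and 0.778, 1.01 and 1.25 in 2D, apart by 3D replicate 3 and 2D replicate 3 only narrowly.

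CLDN18 was listed at 0 in 5 of 6 libraries and at 0.06 TPM in 2D replicate 1, while NKX2-1 was present at 66.5 ± 11.7 TPM in 3D and 62.2 ± 3.52 TPM in 2D (log2 fold change 0.08, limma, adjusted p = 0.74, and -0.09 under median-ratio scaling). Depth is unknown in a TPM table, so no limit is set on the level of CLDN18.

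**Figure D3:**
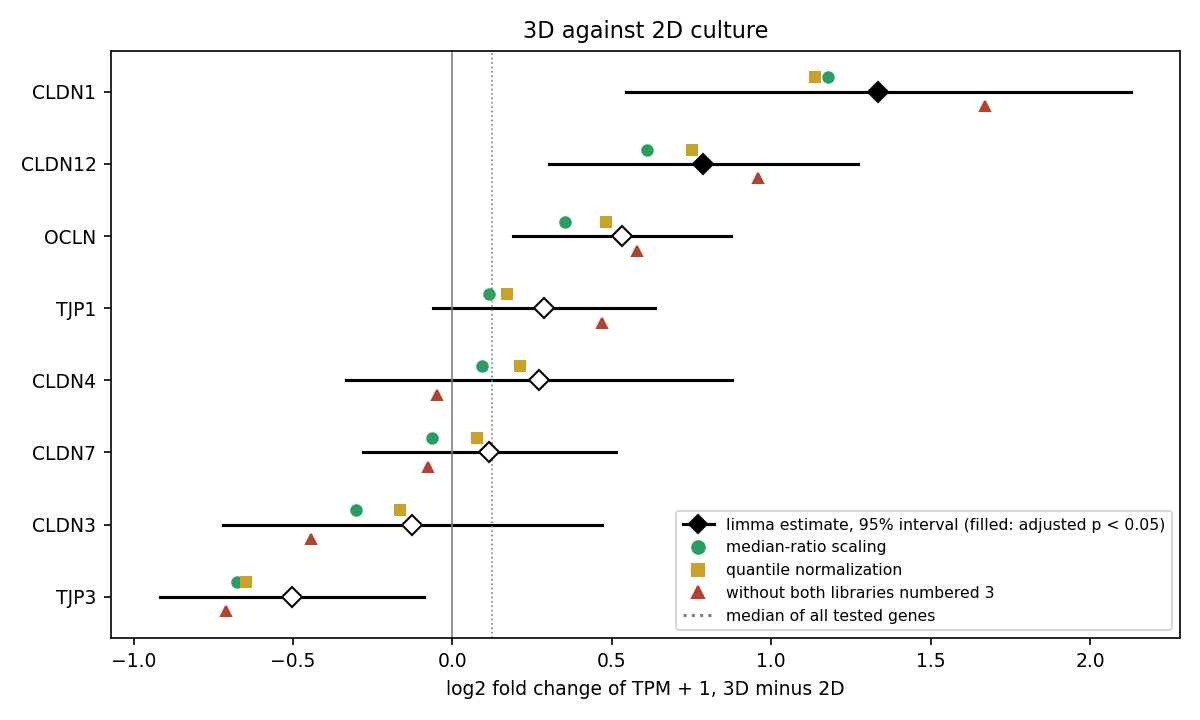
Log2 fold change of TPM + 1, 3D minus 2D, for the 8 tested genes, with its 95% interval and with the estimate under 3 alternatives. Only CLDN1 (1.34) and CLDN12 (0.79) are filled as called, and the intervals of CLDN3, CLDN4, CLDN7 and TJP1 include 0.

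Likeness was taken as the root mean square difference of centred log2(TPM + 1) over 6 libraries, among 12304 tested protein-coding genes. No background of such distances was computed. The genes most like CLDN1 were KDM7A (0.141), SPRR3 (0.159) and CHRNA9 (0.173). Those most like CLDN12 were GOLGA6L9 (0.0407), KIAA1109 (0.0617) and SLC26A2 (0.0621), and those most like OCLN were AFF1 (0.0336), C20orf194 (0.0448) and NSD1 (0.0478). For CLDN7, the member with the smallest difference, they were ATP6V0B (0.04), FAM89A (0.0427) and DTX4 (0.0442). Among the members, CLDN7 was closest to CLDN4 (0.182) and CLDN3 (0.194), CLDN1 was closest to CLDN12 (0.346), and OCLN was closest to TJP1 (0.207) and CLDN12 (0.228).

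Of 121 further junction genes and regulators in 7 lists, 91 were tested, of which 11 rose and 3 fell while 77 were not called, beside 10.2% higher and 2.12% lower among all tested genes. Their median log2 fold change was 0.23, beside 0.12 for all. Of the 14 calls, those of CLDN23, KLF4, OVOL2 and NECTIN4 held in all 15 alternatives, and the other 10 were lost without the filter on low TPM, among other settings. Among the 18 other claudins 4 were tested, with a median log2 fold change of -0.25. CLDN23 stood at 8.53, 11.5 and 9.40 TPM in 3D and at 4.04, 2.57 and 3.44 TPM in 2D and rose (limma, adjusted p = 0.00835, log2 fold change 1.32 with an SE of 0.19). CLDN2, the cation pore claudin, stood at 1.02, 0.52 and 2.63 TPM in 3D and at 3.08, 3.49 and 4.45 TPM in 2D (-1.05, adjusted p = 0.0775). Leaving out 3D replicate 3, alone or with 2D replicate 3, made it a call (adjusted p down to 0.0196). CLDN15, another pore-forming claudin, was at 2.28 ± 1.27 TPM in 3D and 1.96 ± 0.56 TPM in 2D (0.09, adjusted p = 0.856), and -0.03 and -0.12 under median-ratio scaling and quantile normalization. The fourth, CLDN9, named outside the rule, was at 1.35 ± 0.56 and 2.48 ± 0.302 TPM. The other 14 were at or below 0.62 TPM in every library.

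None of 8 tested membrane proteins of the junction beside claudins passed the test (limma, median log2 fold change 0.33). The most abundant were F11R, the adhesion molecule JAM-A, at 118 ± 4.44 TPM in 3D and 100.1 ± 20.0 TPM in 2D, and LSR, which marks corners where 3 cells meet, at 93.0 ± 11.2 and 105 ± 15.6 TPM. None of 20 kinases, GTPase regulators and other effectors passed it either (median 0.24). Among them YBX3, a factor that binds TJP1, was at 344 ± 51.8 TPM in 3D and 266 ± 39.5 TPM in 2D. The GTPase RHOA was at 212 ± 7.76 and 231 ± 21.0 TPM. Without both libraries numbered 3, YBX3 was called higher (0.62 against 0.37, adjusted p = 0.0125).

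Of 19 tested scaffolds, 3 rose and 1 fell while 15 were not called, with a median of 0.41. MPDZ, which carries many PDZ domains, was at 7.74 ± 1.02 TPM in 3D against 4.50 ± 0.488 TPM in 2D and rose (limma, adjusted p = 0.0379, log2 fold change 0.67 with an SE of 0.16). MAGI1 and MAGI3, membrane-associated guanylate kinases, rose from 4.20 ± 0.524 to 7.02 ± 0.431 TPM and from 6.82 ± 0.639 to 11.3 ± 1.17 TPM. PARD6A, a polarity protein, fell from 7.80 ± 2.42 to 3.46 ± 0.704 TPM (-0.95). Each of these 4 calls was lost without 3D replicate 1, 3D replicate 2, 2D replicate 1 or 2D replicate 2, and those of MPDZ, MAGI1 and MAGI3 under both scalings (limma, adjusted p up to 0.132, 0.133 and 0.128, and 0.151 for PARD6A). Those of MAGI1, MAGI3 and PARD6A were also lost without 3D replicate 3, and that of MAGI1 without 2D replicate 3. Among the abundant uncalled scaffolds was the polarity protein PARD3, at 74.6 ± 8.55 TPM in 3D and 53.0 ± 2.27 TPM in 2D. Without 3D replicate 3, PARD3 was called (0.56, adjusted p = 0.0385).

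Of 12 partners of claudins and surface proteases, 2 rose and 10 did not pass the test. ADAM10, a protease that cleaves E-cadherin, rose from 66.0 ± 5.09 to 97.0 ± 11.7 TPM, and ADAM17, which sheds EGFR ligands, from 19.9 ± 4.14 to 33.3 ± 3.97 TPM (limma, log2 fold changes 0.54 and 0.73, adjusted p = 0.0433 and 0.0377). Both calls were lost under both scalings, without the trend and when replicate 1 or 2 of either group was left out (adjusted p up to 0.158 and 0.137). EPCAM was at 576 ± 11.2 TPM in 3D and 597 ± 30.5 TPM in 2D. SPINT2, an inhibitor of surface serine proteases, was at 450.1, 426 and 475 TPM in 3D and 586, 444 and 404 TPM in 2D. As for CLDN4, its 2D libraries spread more widely than its 3D libraries.

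Of 17 tested regulators of epithelial junction genes, transcription factors with the splicing factors ESRP1 and ESRP2, 3 rose and 2 fell while 12 were not called. The median log2 fold change of these 17 was 0.16. KLF4, a factor of epithelial differentiation, stood at 147, 105 and 68.7 TPM in 3D and at 27.3, 23.4 and 16.4 TPM in 2D and rose (limma, adjusted p = 0.0066, log2 fold change 2.17 with an SE of 0.29). OVOL2, a repressor of mesenchymal genes, fell from 14.5 ± 2.37 to 5.89 ± 0.889 TPM (-1.17, adjusted p = 0.00992). SNAI1, a repressor of claudin, occludin and E-cadherin genes, stood at 6.69, 11.3 and 8.09 TPM in 3D and at 15.5, 21.8 and 23.2 TPM in 2D and fell (-1.14, SE 0.22, adjusted p = 0.0202). Its call was lost without 3D replicate 1 or 2D replicate 2 (adjusted p up to 0.084). The related repressors SNAI2, ZEB1, ZEB2 and TWIST1 did not exceed 0.80 TPM in any library, whereas TWIST2 stood at 4.99 to 6.18 TPM in 3D and 5.82 to 7.03 TPM in 2D (-0.18, limma, adjusted p = 0.47). These 5 are named outside the rule. The epithelial factor ELF3 rose from 469.9 ± 59.7 to 844 ± 137 TPM (0.84, adjusted p = 0.0212), and KLF5 from 49.4 ± 3.53 to 68.6 ± 2.49 TPM (0.47, adjusted p = 0.0422). The call of ELF3 ended when replicate 1 or 2 of either group was left out (adjusted p up to 0.0857), and that of KLF5 under both scalings and without any single library (adjusted p up to 0.153). ESRP1, an epithelial splicing factor, was at 132 ± 2.54 and 139 ± 9.63 TPM.

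Of 11 tested adherens junction genes, which form the neighbouring adhesion belt, 2 rose and 9 did not pass the test (median log2 fold change 0.09). NECTIN4 (PVRL4 in the table), an adhesion molecule, rose from 4.76 ± 1.16 to 14.9 ± 2.28 TPM (limma, adjusted p = 0.00641, log2 fold change 1.47 with an SE of 0.20). NECTIN1 (PVRL1) rose from 2.78 ± 0.479 to 6.04 ± 0.78 TPM (0.90, adjusted p = 0.0223), which ended when replicate 1 or 2 of either group was left out (adjusted p up to 0.0974). CTNNA1, which links cadherins to actin, was at 292 ± 6.03 TPM in 3D and 315 ± 12.0 TPM in 2D, and the cadherin CDH3 at 180 ± 47.5 and 247 ± 35.5 TPM. CDH3 was called lower without 3D replicate 3 (-0.68, adjusted p = 0.0459).

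**Figure D4:**
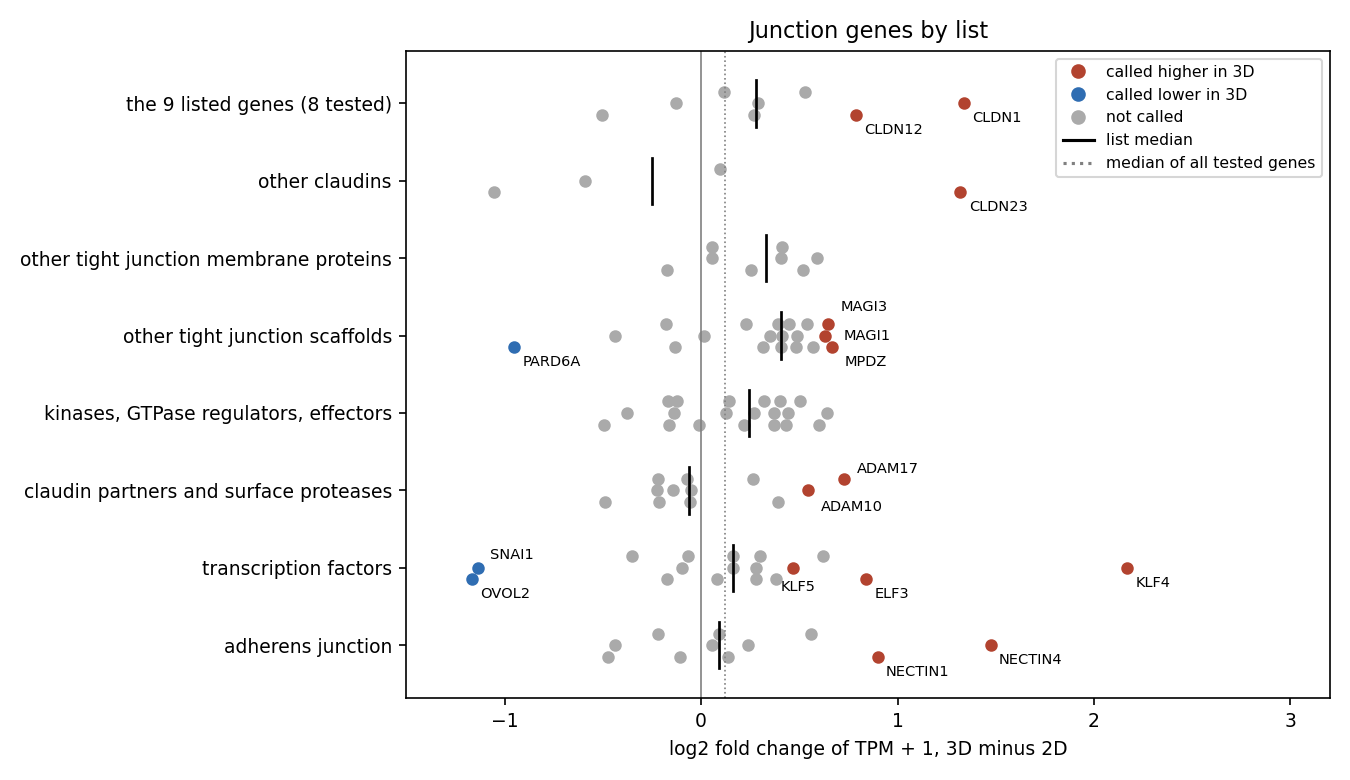
Log2 fold change of TPM + 1, 3D minus 2D, for every tested gene of the 9 listed genes and of 7 further lists, red where called higher, blue where called lower and grey where not called, with list medians as bars. KLF4 (2.17), NECTIN4 (1.47), CLDN1 (1.34) and CLDN23 (1.32) lie farthest to the right, and OVOL2 (-1.17) and SNAI1 (-1.14) farthest to the left of the called genes.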

How the data were processed

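Poly(A) RNA of 6 HCC827 libraries was sequenced as single-end 75 nt reads with a directional kit, per the labels' protocols. The authors deposited TPM per gene and library, rounded to 2 decimals. The submitters' processing notes name build hg38, RSEM 1.3.1, STAR 2.7.0d and cutadapt 2.3, with no settings. For the annotation release and the use of strand in counting, nothing is given in the sources used here. TPM keeps no depth, so the depth and counting precision of each library are unknown. TPM is a share of each library, and a rise of some genes lowers the rest. Groups and replicate numbers came from the sample titles.

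Genes averaging 1 TPM or more were fitted on log2(TPM + 1) with limma 3.58.1 (eBayes with a trend, R 4.3.3), 3D against 2D, two-sided, with Benjamini-Hochberg adjustment over 15042 genes at 0.05. Because of the pseudocount, fold changes of low genes are understated. The fit was tested on simulated data with noise drawn independently per gene and library. Such data hold no shift shared by many genes of a library. The members, lists, alternatives and tests were chosen with earlier results of these data known. By rule all members were named, and per list up to 4 called genes in each direction and the 2 most abundant uncalled ones, with the 3 genes most like each of 4 members; 1 gene under this rule is not reported here. The 15 alternatives changed the pseudocount, filter, scaling, trend or block, or left out libraries. Gene positions came from GENCODE 29 (98.9% of tested identifiers found), and promoters, matched for 9 of 9 members, from RefSeq. Plots used matplotlib 3.10.9 (Python 3.11.15).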

Additional observations from a re-analysis of the deposited data

How the results depend on the processing

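The counts of called genes moved with several settings. The 1536 higher and 319 lower genes became 729 and 86 without the filter on low TPM, 943 and 669 under median-ratio scaling, 869 and 576 under quantile normalization, and 2464 and 1356 without both libraries numbered 3. Leaving out each library in turn gave 367 to 1607 higher and 29 to 563 lower. For 3D replicates 1 and 2 these were 367 and 390 higher with 29 and 41 lower, and for 2D replicates 1 and 2 they were 731 and 425 higher with 74 and 53 lower. Leaving out replicate 3 of 3D or of 2D gave 551 or 563 lower. Of the 9 members, 2 were called higher, and 3 (with OCLN) without both libraries numbered 3. The count was 0 with a pseudocount of 5, without the filter, under median-ratio scaling, under quantile normalization and without the trend. With each library left out it was 0 to 2 (2 only without 3D replicate 3). No member was called lower, except 1 (TJP3) under median-ratio scaling and 1 (TJP3) without both libraries numbered 3. Among the pathway lists, 11 higher and 3 lower genes became 3 and 1 without the filter, 5 and 3 under median-ratio scaling, 6 and 3 under quantile normalization, 20 and 7 without both libraries numbered 3, and 3 to 13 and 1 to 5 with each library left out (3 higher without replicate 1 or 2 of either group, 1 lower without 3D replicate 1 or 2D replicate 2, 5 lower without 2D replicate 3). The cause of these shifts was not tested; fewer samples or more genes tested enter by construction where libraries are left out or the filter is dropped.

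Signs turned for 7 of the uncalled named genes. Under median-ratio scaling the log2 fold change was -0.063 for CLDN7, -0.027 for CLDN15 and -0.095 for NKX2-1, and under quantile normalization -0.12 for CLDN15. Without both libraries numbered 3 it was -0.047 for CLDN4, -0.077 for CLDN7, 0.0038 for ESRP1 and -0.0945 for NKX2-1. With single libraries left out it ranged from -0.42 to 0.13 for CLDN3, from -0.0047 to 0.55 for CLDN4, from -0.035 to 0.26 for CLDN7, from -0.199 to 0.33 for CLDN15 (-0.0023 without 2D replicate 2), from -0.18 to 0.085 for SPINT2 and from -0.056 to 0.16 for NKX2-1.

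With the replicate number as a block, 1479 genes were higher and 395 lower, the same 2 members were called, and 7 pathway genes were higher and 4 lower. Among named genes the block ended the calls of MPDZ, MAGI1, ADAM10, ADAM17 and KLF5 (limma, adjusted p = 0.0629, 0.0612, 0.0713, 0.0568 and 0.0742) and made CLDN2 a call (0.0447); over all alternatives their adjusted p ran from 0.00587 to 0.158, and that of CLDN2 from 0.0196 to 0.206. Whether the numbers pair the samples cannot be settled here, since deviations from a mean of 3 libraries are not independent. Those deviations correlated at 0.10, 0.04 and 0.19 between same-numbered libraries and at -0.17 to 0.13 between different-numbered ones. Not every library correlated best with its own number.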
